A study of Arabidopsis thaliana with 22 samples.

Results

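The UGT genes of Arabidopsis encode family 1 glycosyltransferases, enzymes that transfer a sugar from a UDP-sugar to a small molecule. They were taken here as the probe sets that the platform's gene table pairs with a single gene whose symbol starts with UGT and a digit, without *UGT78D2* and *UGT76B1*. This gave 45 genes, each with 1 probe set, among 22746 probe sets that are no controls, 13513 of which have a single gene. A RefSeq locus was found for all 45. RefSeq names 58 genes in this way, so some UGT genes are not covered, and 3 probe sets shared between a UGT gene and another gene were not used.

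Green tissues of seedlings of 2 lines were profiled on 22 Affymetrix ATH1 arrays. The GL1-GR line was *gl1* transformed with pGL1::GL1-GR, and the GL3-GR line was the double mutant *gl3 egl3* transformed with pGL3::GL3-GR. GL1 (an R2R3-MYB protein) and GL3 (a bHLH protein) act together at the start of leaf hair (trichome) formation, and each fusion to the glucocorticoid receptor (GR) is held inactive until dexamethasone (DEX) is supplied. Seedlings were moved to medium with DEX or with its solvent ethanol (Mock) and collected after 4 h or 24 h, with 3 arrays per group except in GL3-GR at 24 h, where DEX and Mock had 2 arrays each. Each transgene was driven by the promoter of its own gene, seedlings were pooled for each RNA extraction, and neither line was compared with plants that lack the transgene, so that DEX acting without the fusion protein cannot be told apart from the fusion protein acting. In such whole green tissue, fewer cells of a type and less RNA per cell also cannot be told apart.

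As background, plant UGTs share a signature motif near the C-terminus that holds the UDP-sugar, while the more variable N-terminal part binds the acceptor. Their acceptors include flavonols and anthocyanins, hydroxycinnamic acids and the alcohols from which lignin is built, the hormones auxin, cytokinin and abscisic acid, salicylic acid, precursors of glucosinolates, sterols and foreign chemicals. Adding a sugar usually makes the acceptor more soluble, changes its activity and allows it to be stored in the vacuole. Many of the genes lie in tandem arrays of close relatives.

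Values are log2 GCRMA expression as deposited, and a set means the arrays of 1 line at 1 time. Probe sets without signal were taken to sit at a floor near the lowest value of their array, where values have no order. A gene was called above the floor on an array when it lay more than 1 log2 unit above that lowest value. Some probe sets above this margin, such as those of *UGT71C2* and *UGT76E2*, read an unvarying value on the arrays of a group. Whether such values are signal was not tested, so a gene above the floor is not thereby shown to be expressed. The lowest value and the array median differed from set to set, with medians of 5.96 to 6.06 (GL1-GR, 4 h), 4.45 to 4.58 (GL1-GR, 24 h), 3.62 to 3.72 (GL3-GR, 4 h) and 4.67 to 4.72 (GL3-GR, 24 h). Levels in different sets therefore also hold any difference in normalization, batch or genotype, which cannot be told apart. DEX and Mock arrays of a set share its scale. The residual spread was 0.584 (root mean square SD, log2) for GL3-GR at 4 h and 0.206 to 0.313 in the other sets. Arrays of a set correlated at 0.937 to 0.998, and arrays of different sets at 0.815 to 0.962. In the GL3-GR set of 4 h the Mock and DEX arrays numbered sample 1 stood apart from the 4 others, and values without them are given where they move a result. The probe sets of *GL1*, *GL2* and *TTG2*, 3 trichome genes, were above the floor on 0 of 22 arrays (2.12 to 3.04), and GL3 had no named probe set, so the arrays give no check of the transgenes. Of the marker lists, RCA, the Rubisco activase of green tissue and 1 of 8 listed green tissue genes with a named probe set, was at 10.64 to 13.7. The root hair gene *EXPA7*, 1 of 7 listed root genes with a named probe set, was above the floor on no array (2.15 to 2.55). Of the listed trichome genes, *GL2* and *TTG2* were at the floor as given above, and TRY, an inhibitor of trichome initiation, ranged from 2.26 to 6.48. Its DEX minus Mock change was -0.29 (SE 0.47) in GL1-GR at 4 h and -0.08 (SE 0.33) at 24 h. In GL3-GR it was -0.68 (SE 0.58) at 4 h and was not tested at 24 h. None of these changes passed the adjusted threshold in limma.

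Most UGT genes were either above the floor in both lines at both times or at the floor in most arrays. At 4 h in GL1-GR, 31 of 45 (68.9%) were above the floor on all 6 arrays, against 64.5% of all probe sets. The other sets had fewer. In GL1-GR at 24 h there were 23 (51.1%, against 54.9%), in GL3-GR at 4 h 21 (46.7%, against 48.6%) and in GL3-GR at 24 h 24 (53.3%, against 55.4%). The shares of UGT genes were near those of the whole array in each set. DEX did not alter these counts by more than 1 gene, with 31, 24, 21 and 24 genes above the floor on every Mock array and 32, 23, 21 and 24 on every DEX array (GL1-GR at 4 h and 24 h, then GL3-GR at 4 h and 24 h). In the GL3-GR set of 4 h, 13 genes were above the floor on only some arrays, compared with 1 gene in each of the other sets. Such a split was common in this set. Of all probe sets, 6.52% were above the floor on some of its arrays and on no array of the other sets. Another 5.62% were above it on some of its arrays and on every array of the other sets. The full share of all probe sets was not computed.

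In all 22 arrays, 20 UGT genes were above the floor, which is a pattern shared by 44.2% of all probe sets. The 20 genes were *UGT71B1*, *UGT71B6*, *UGT71C2*, *UGT71C4*, *UGT71C5*, *UGT72E1*, *UGT73B1*, *UGT73B5*, *UGT74B1*, *UGT74D1*, *UGT76C2*, *UGT76E11*, *UGT78D1*, *UGT80B1*, *UGT84A3*, *UGT85A2*, *UGT85A4*, *UGT85A5*, *UGT87A2* and *UGT88A1*. With a floor margin of 2 log2 units, tried after the data were seen, 10 of them stayed above it on all arrays (34.3% of all probe sets). *UGT71C2*, which is not among these 10, read 4.09 on each GL1-GR DEX array of 4 h and did not vary at this rounding. Among the 20 are genes for most of the listed classes of acceptor. *UGT78D1* is the flavonol rhamnosyltransferase, *UGT84A3* makes glucose esters of sinapic and related acids, *UGT72E1* is listed with the phenylpropanoid genes and *UGT74B1* makes the desulfo precursor of glucosinolates. *UGT74D1* acts on auxin, *UGT76C2* on cytokinin, and *UGT71B6* and *UGT71C5* on abscisic acid, while *UGT80B1* (TT15) glucosylates sterols. *UGT87A2*, known for an effect on flowering time, had set means of 11.82, 12.35, 9.42 and 12.65 in GL1-GR at 4 h and 24 h and GL3-GR at 4 h and 24 h.

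At the floor in all 22 arrays were 8 genes, the pattern of 23.7% of all probe sets. They were *UGT73C2*, *UGT73C7*, *UGT74F1*, *UGT76D1*, *UGT76E1*, *UGT84B1*, *UGT84B2* and *UGT85A3*. *UGT84B1* and *UGT84B2*, which act on the auxin indole-3-acetic acid, were both among them, as were *UGT74F1* and *UGT76D1*, which act on salicylic acid and on dihydroxybenzoic acids. The listed salicylate and benzoate genes with a probe set were thus all at the floor, whereas of the 3 listed auxin genes *UGT74D1* was not. A gene at the floor may still be expressed in few cells.

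The remaining 17 genes were above the floor in some sets or arrays only. *UGT71B5*, *UGT71B8*, *UGT71C1* and *UGT72E3* left the floor on some GL3-GR arrays of 4 h and on none of the other sets. *UGT73D1*, *UGT76C1*, *UGT78D3* and *UGT84A4* were above it on every GL1-GR array of 4 h, on some GL3-GR arrays of 4 h and on no array of 24 h. In this group *UGT78D3*, the flavonol arabinosyltransferase, had 3.73 to 3.92 on the GL1-GR arrays of 4 h. The last 9 each had a pattern of their own: *UGT71C3*, *UGT72B3*, *UGT72E2*, *UGT73B4*, *UGT73C1*, *UGT76E2*, *UGT76E12*, *UGT84A1* and *UGT85A7*. Of these, *UGT76E2* read 3.31 on each GL1-GR DEX array of 4 h and did not vary at this rounding.

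**Figure D1:**
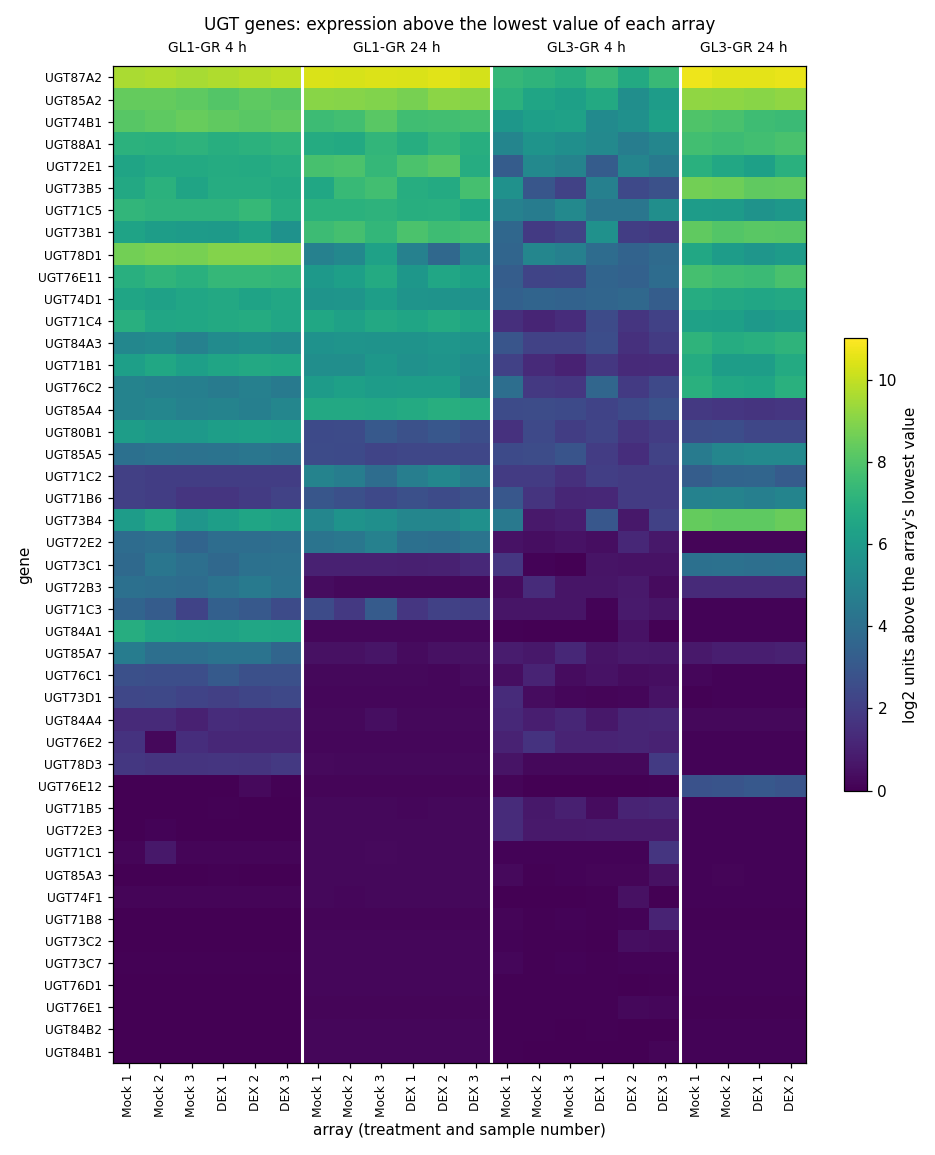
Expression of the 45 UGT genes (rows) on the 22 arrays (columns, by line, time, treatment and sample number), in log2 units above the lowest value of the array. The 20 genes at the top are above the floor on all arrays and the GL3-GR arrays of 4 h are the dimmest, which holds for the array as a whole.

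*UGT84A1*, a sinapate glucosyltransferase (AT4G15480), was expressed in 1 set only. It read 8.94, 8.55 and 8.5 on the GL1-GR Mock arrays of 4 h and 8.45, 8.62 and 8.55 on the matching DEX arrays. On all 16 other arrays it lay between 2.14 and 2.8, at the floor. No array of another set came near those of GL1-GR at 4 h, and DEX and Mock overlapped within it (-0.12, SE 0.14). This was the pattern of 1 of the 45 UGT genes and of 761 probe sets in all (3.35%).

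*UGT76E12* (AT3G46660), a relative of *UGT76E11*, was above the floor in GL3-GR at 24 h alone, a pattern of 0.136% of all probe sets. There it read 4.83 and 4.93 in Mock and 5.07 and 4.93 in DEX plants, against 2.12 to 2.4 on the 18 other arrays. *UGT71C3*, which glucosylates methyl salicylate, was above the floor on all 12 GL1-GR arrays (3.72 to 5.63) and on no GL3-GR array (2.14 to 3.04).

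Genes above the floor in every array of one line and in no array of the other at the same time were few. At 4 h, 2 UGT genes, *UGT71C3* and *UGT84A1*, were expressed in GL1-GR and at the floor in GL3-GR (6.8% of all probe sets), and 0 had the opposite pattern (1.19%). At 24 h, *UGT71C3* and *UGT72E2* were above the floor in GL1-GR only (2.24%), and *UGT72B3* and *UGT76E12* in GL3-GR only (1.95%). *UGT72E2*, which glucosylates coniferyl and sinapyl alcohol, read 5.96 to 6.78 in GL1-GR and 2.18 to 2.19 in GL3-GR at 24 h. *UGT72B3* read 3.38 on each of the 4 GL3-GR arrays of 24 h, a value that did not vary at 2 decimals. It was at the floor there when the margin was set to 2 log2 units, and whether the value is signal was not tested.

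At 24 h, where the array medians of the lines were closest, the arrays of 10 UGT genes (22.2%) did not overlap between the lines and were over 1 log2 unit apart, against 7.54% of all probe sets. *UGT71C3*, *UGT72E2* and *UGT85A4* were higher in GL1-GR. *UGT71B6*, *UGT72B3*, *UGT73B4*, *UGT73C1*, *UGT76E12*, *UGT84A3* and *UGT85A5* were higher in GL3-GR. After the 22 arrays were given a common distribution by quantile normalization, 8 genes (17.8%, against 6.12% of all probe sets) stayed over 1 unit apart, without *UGT72B3* and *UGT84A3*. These values compare plants that differ in line, genotype and processing set at once, and no test was made across sets.

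*UGT85A4* (AT1G78270) had 8.55 to 8.88 on the 6 GL1-GR arrays and 3.72 to 3.9 on the 4 GL3-GR arrays. *UGT73B4*, known to act on the explosive TNT, went the other way, with 7.02 to 7.61 in GL1-GR and 10.33 to 10.52 in GL3-GR. *UGT73C1*, which glucosylates cytokinins, had 2.92 to 3.22 in GL1-GR and 6.07 to 6.14 in GL3-GR. For *UGT71B6* and *UGT85A5* the values were 4.4 to 4.9 against 6.8 to 7.02, and 4.22 to 4.5 against 6.61 to 7.24. In each of these 5 genes the spread between the arrays of a line was below 1 unit, and neither line's DEX and Mock groups differed by as much as the lines did.

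Levels also differed between the sampling times of a line. *UGT80B1* had 8.03 to 8.36 in GL1-GR at 4 h and 4.44 to 5.04 at 24 h, and 3.83 to 4.68 and 4.37 to 4.64 in GL3-GR. After quantile normalization of all arrays its means were 7.54 and 4.86 in GL1-GR and 5.76 and 4.6 in GL3-GR, so that the likeness of the GL3-GR times was seen in the deposited values alone. *UGT78D1* had 10.77 to 11.08 in GL1-GR at 4 h and 5.68 to 8.25 at 24 h, against 5.77 to 7.3 and 7.85 to 8.66 in GL3-GR. After quantile normalization its GL3-GR means turned from 6.36 and 8.18 to 8.25 and 7.4, while in GL1-GR (10.65 and 6.49) the order was kept. Of the 20 genes above the floor everywhere, 16 had their lowest mean in GL3-GR at 4 h, which was also true of 90.9% of all such probe sets. After quantile normalization of all arrays only 7 did (27.7% of all such probe sets).

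Neighbouring UGT genes on a chromosome mostly differed in pattern, and no share for neighbours of other families was computed. In RefSeq gene order, 29 of the 45 genes lay in 12 groups of 2 to 4 genes with at most 2 genes between them, and 16 had no such neighbour. The groups in which every gene had the same pattern numbered 1, *UGT84B2* and *UGT84B1*, both at the floor. In 3 groups a gene above the floor on every array of all sets lay beside a gene for which no set reached this. *UGT85A3*, beside *UGT85A2* and *UGT85A5*, was at the floor throughout, whereas *UGT71C1*, beside *UGT71C2*, and *UGT71B8*, beside *UGT71B1* and *UGT71B6*, were each above it on 1 GL3-GR array of 4 h. In the sinapate group, *UGT84A1*, *UGT84A3* and *UGT84A4* had a different pattern each, since *UGT84A3* was above the floor in all sets and *UGT84A1* in 1. *UGT76C2* and *UGT76C1*, both of which attach glucose to the nitrogen of cytokinins, were above the floor in 4 sets and in 1 set.

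**Figure D2:**
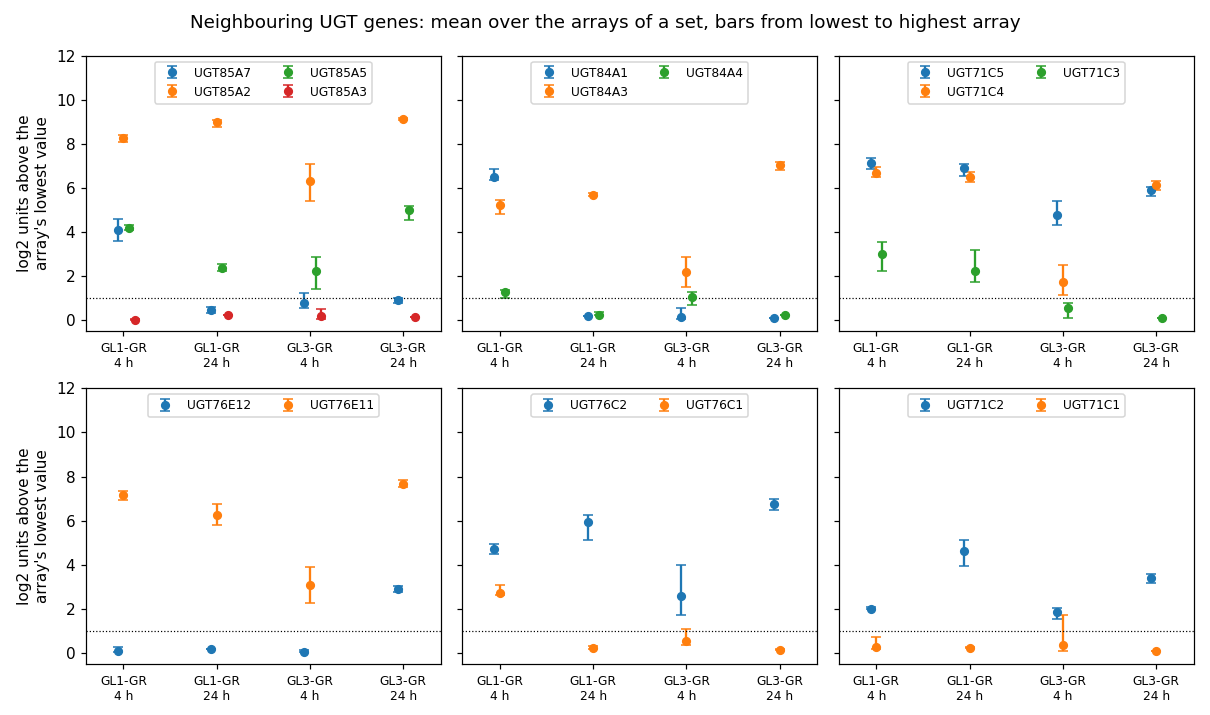
Mean level of neighbouring UGT genes in each set, in log2 units above the array's lowest value, with bars from the lowest to the highest array and a dotted line at the floor margin of 1. Levels of different genes are not comparable, and what the panels show is which genes of a group are above the floor in which set, such as *UGT84A1* in GL1-GR at 4 h only.

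DEX was compared with Mock in each set, to ask whether activation of either factor alters the expression of UGT genes. Genes above the floor in at least 2 arrays of the set were tested with limma, 32, 24, 24 and 24 UGT genes in GL1-GR at 4 h, GL1-GR at 24 h, GL3-GR at 4 h and GL3-GR at 24 h. Tested in all 4 sets were 21 genes, and 11 were tested in none. Every tested UGT gene was above the floor on at least 1 Mock and 1 DEX array of its set. In GL3-GR at 4 h, *UGT71B5* and *UGT73B4* were above it on 1 Mock and 2 DEX arrays. Their DEX arrays alone thus met the filter and their Mock arrays alone did not. No UGT gene passed an adjusted p of 0.05 in any set (Benjamini-Hochberg over all tested probe sets), and the smallest adjusted p among them was 0.63, 1, 0.992 and 0.794.

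Few probe sets of the whole array passed either. In GL1-GR at 4 h, 0 of 32 UGT genes and 1 of 14968 probe sets (0.00668%) passed, the latter a probe set with no gene name that was picked after its values were seen (1.52, SE 0.08, limma adjusted p = 0.0115). In the other 3 sets 0 UGT genes and 0 probe sets (0%) passed. At an unadjusted limma p under 0.05 there were 3 UGT genes in GL1-GR at 4 h (7.38% of all probe sets), 0 of 24 at 24 h (1.86%), 3 of 24 in GL3-GR at 4 h (3.09%) and 3 of 24 in GL3-GR at 24 h (5.68%). The Student's t-test named in the study's methods, at its threshold of p under 0.01, gave *UGT78D1* in GL1-GR at 4 h (1.15% of all probe sets) and 0 genes in GL1-GR at 24 h (0.256%), GL3-GR at 4 h (0.538%) and GL3-GR at 24 h (0.869%). It gave 0 UGT genes in all 4 sets after Benjamini-Hochberg adjustment.

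The changes were small. They ranged from -0.23 to 0.34 (GL1-GR, 4 h), -0.85 to 0.26 (GL1-GR, 24 h), -0.78 to 1.01 (GL3-GR, 4 h) and -0.44 to 0.36 (GL3-GR, 24 h) on the log2 scale. Their medians were 0.05, -0.05, -0.12 and -0.04, beside 0.01, 0.01, -0.09 and -0.01 for all tested probe sets. More UGT genes were higher than lower in DEX plants of GL1-GR at 4 h (20 and 12), and more were lower in the other sets (15, 17 and 17, against 9, 7 and 7 higher). The median of all tested probe sets was above 0 in both GL1-GR sets and below 0 in both GL3-GR sets. Shares of all probe sets by direction were not computed, so these counts are not read as particular to UGT genes. The median standard error of a change was 0.11, 0.16, 0.33 and 0.11. The 95% confidence interval lay wholly within a 2-fold change either way for 32 of 32 genes in GL1-GR at 4 h, 20 of 24 at 24 h and 22 of 24 in GL3-GR at 24 h. In GL3-GR at 4 h this held for 9 of 24 only, and for the other 15 a change of more than 2-fold lay within the interval.

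**Figure D3:**
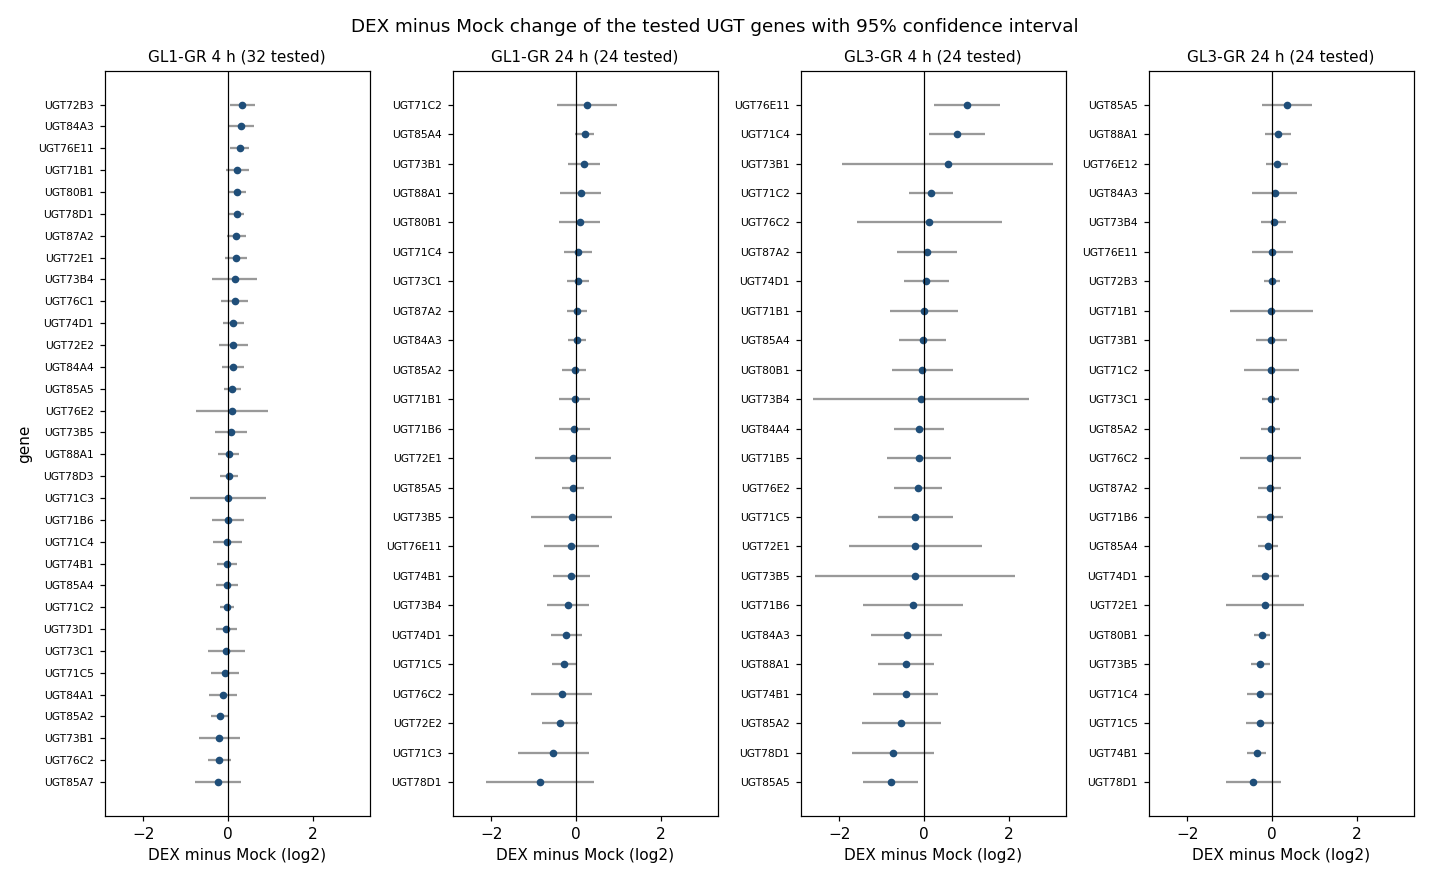
DEX minus Mock change (log2, points) of each tested UGT gene with its 95% confidence interval (lines) in the 4 sets. All intervals in GL1-GR at 4 h lie within 1 log2 unit of 0, whereas those in GL3-GR at 4 h are wide, and *UGT76E11* with 1.01 is the highest point.

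In GL1-GR at 4 h, the DEX and Mock arrays did not overlap for 9 of 32 genes, 8 higher and 1 lower in DEX (28.1%, against 13.4% of all probe sets). For *UGT76C1* and *UGT85A2* among them the nearest Mock and DEX arrays were alike at this rounding (4.77 and 10.35). *UGT76E11* (AT3G46670), an enzyme with activity on flavonols, read 9.05, 9.28 and 9.06 in Mock and 9.44, 9.44 and 9.35 in DEX plants. Every DEX array was above every Mock array, and the change was 0.28 (SE 0.09, adjusted p = 0.63). *UGT72B3* read 6.17, 6.09 and 5.97 in Mock and 6.31, 6.64 and 6.3 in DEX plants, again without overlap, a change of 0.34 (SE 0.12, adjusted p = 0.632).

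*UGT78D1* (AT1G30530) read 10.77, 10.87 and 10.83 in Mock and 11.08, 11.04 and 10.96 in DEX plants of the same set. The groups did not overlap and differed by 0.21 (SE 0.08, adjusted p = 0.637). *UGT84A3* read 7.18, 7.36 and 6.93 against 7.39, 7.57 and 7.43, with its highest Mock array just below its lowest DEX array, a change of 0.31 (SE 0.13, adjusted p = 0.672), or 0.19 without Mock sample 3. The next genes by p were *UGT80B1* with 0.21 (SE 0.09), *UGT85A2* with -0.19 (SE 0.09), *UGT87A2* with 0.19 (SE 0.09) and *UGT71B1* with 0.22 (SE 0.11). *UGT85A2* was the gene that was lower in every DEX array, by less than the rounding at its nearest arrays.

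In GL1-GR at 24 h, the arrays of 4 of 24 genes did not overlap, 1 higher and 3 lower in DEX (16.7%, against 5.99%). *UGT85A4* read 8.6, 8.6 and 8.55 in Mock and 8.69, 8.88 and 8.8 in DEX plants, a change of 0.21 (SE 0.09, adjusted p = 1). *UGT71C5*, which attaches glucose to abscisic acid, read 9, 9.01 and 9.07 in Mock and 8.85, 8.9 and 8.53 in DEX plants. All of its DEX arrays were lower, by -0.27 on average (SE 0.12, adjusted p = 1), or by -0.15 without DEX sample 3.

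*UGT72E2* read 6.21, 6.32 and 6.78 in Mock and 6.05, 5.96 and 6.21 in DEX plants at 24 h. Its lowest Mock array and highest DEX array were alike at this rounding, and the change was -0.37 (SE 0.17, adjusted p = 1), or -0.19 without Mock sample 3. *UGT78D1* had the most negative change of this set, -0.85 (SE 0.52, adjusted p = 1), from 6.79, 7.1 and 8.25 in Mock and 6.78, 5.68 and 7.13 in DEX plants. These arrays overlapped, with Mock sample 3 the highest and DEX sample 2 the lowest, and the change was -0.42 without the former and -0.43 without the latter. *UGT71C3* had -0.53 (SE 0.34), *UGT74D1* -0.23 (SE 0.15), *UGT73B1* 0.2 (SE 0.16) and *UGT76C2* -0.33 (SE 0.29).

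In GL3-GR at 4 h, the arrays of 3 of 24 genes did not overlap, 2 higher and 1 lower in DEX (12.5%, against 8.23%). *UGT76E11* read 5.48, 4.51 and 4.58 in Mock and 5.79, 5.67 and 6.16 in DEX plants. It was higher in each DEX array, by 1.01 or 2.02-fold (SE 0.33, 95% interval 0.23 to 1.8, adjusted p = 0.992). Without both sample 1 arrays, a choice made after the data were seen, the change was 1.37 (SE 0.25, adjusted p = 0.232).

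*UGT85A5* (AT1G22370) read 4.73, 4.83 and 5.12 in Mock and 4.21, 3.69 and 4.42 in DEX plants of this set. It was lower in each DEX array, by -0.78 (SE 0.27, adjusted p = 0.992). A limma fit to all 22 arrays, which pools the spread of this set with the smaller ones of the others, gave the same change an adjusted p of 0.0417, while over all alternatives it ranged from 0.0417 to 1. *UGT71C4* (AT1G07250) read 3.74, 3.38 and 3.65 in Mock and 4.77, 3.96 and 4.37 in DEX plants, without overlap, a change of 0.78 (SE 0.28, adjusted p = 0.992).

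*UGT78D1* read 5.83, 7.3 and 7.05 in Mock and 6.14, 5.77 and 6.06 in DEX plants of GL3-GR at 4 h. Mock sample 1 lay among the DEX arrays, and the change was -0.73 (SE 0.41, adjusted p = 0.992). It depended on single arrays, with -1.18 without Mock sample 1, -0.45 without Mock sample 2 and -1.26 without both sample 1 arrays (SE 0.23, adjusted p = 0.232). *UGT88A1* had -0.42 (SE 0.27), *UGT85A2* -0.54 (SE 0.39), *UGT74B1* -0.43 (SE 0.32) and *UGT84A3* -0.41 (SE 0.36).

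**Figure D4:**
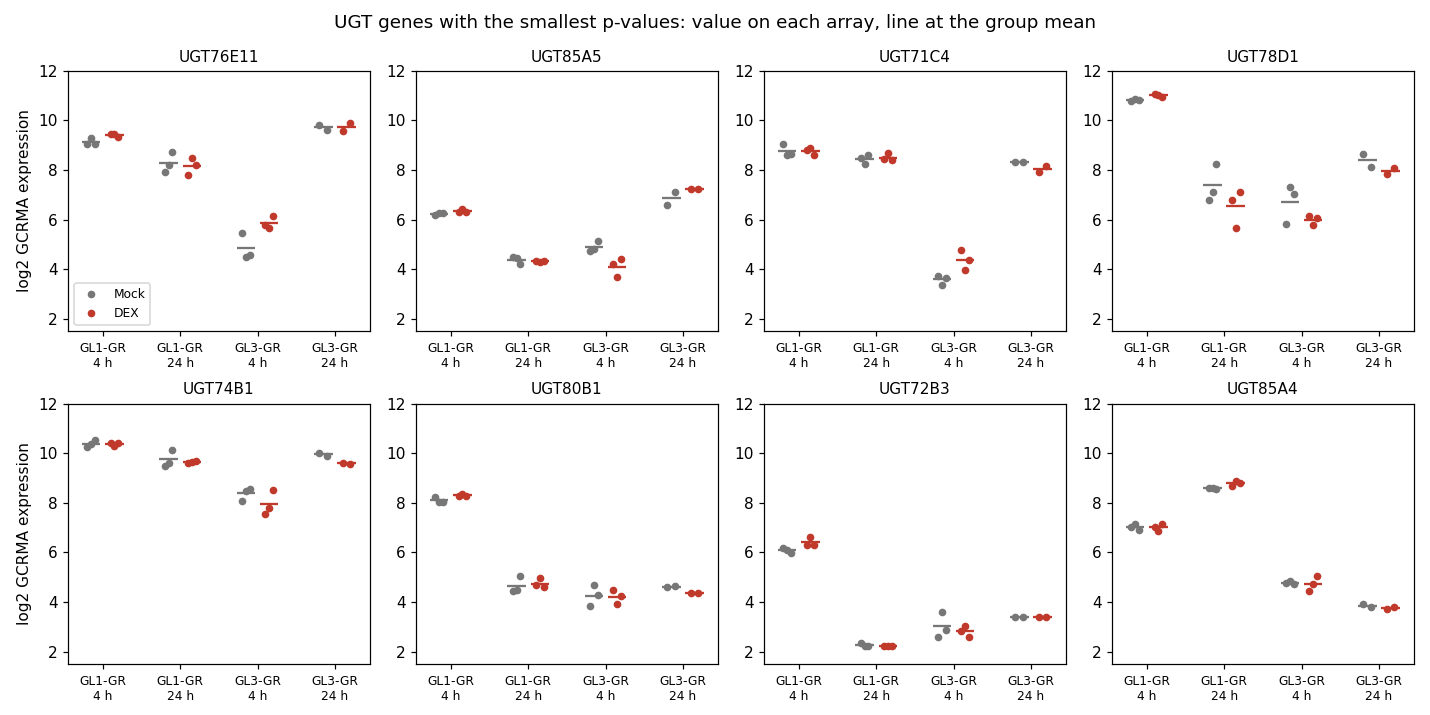
Log2 GCRMA expression of 8 UGT genes on each array (points) with group means (lines), Mock in grey and DEX in red, in the 4 sets. *UGT76E11* and *UGT71C4* are higher and *UGT85A5* lower in all 3 DEX arrays of GL3-GR at 4 h, and no change shown passed the adjusted threshold in limma.

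In GL3-GR at 24 h there were 2 arrays per group, and 8 of 24 genes did not overlap, 1 higher and 7 lower in DEX (33.3%, against 36.5%). *UGT74B1* (AT1G24100) read 10 and 9.9 in Mock and 9.62 and 9.56 in DEX plants, a change of -0.36 (SE 0.08, adjusted p = 0.794). *UGT73B5*, which affects the redox state of the cell during the response to bacteria, read 10.7 and 10.61 against 10.37 and 10.4, a change of -0.27 (SE 0.07, adjusted p = 0.794). *UGT80B1* read 4.59 and 4.64 against 4.37 and 4.38, a change of -0.24 (SE 0.07, adjusted p = 0.794).

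In these 3 genes both DEX arrays were below both Mock arrays, as they were for *UGT71C4*, which read 8.34 and 8.32 against 7.94 and 8.15 (-0.28, SE 0.1, adjusted p = 0.794, and -0.18 without DEX sample 1). *UGT71C4* was thus lower with DEX at 24 h and higher at 4 h in GL3-GR, though neither change passed the adjusted threshold in limma. Its Mock arrays of 4 h (3.38 to 3.74) were within 2 log2 units of the array's lowest value. *UGT71C5* had -0.29 (SE 0.11), *UGT78D1* -0.44 (SE 0.22), *UGT85A5* 0.36 (SE 0.2) and *UGT74D1* -0.16 (SE 0.11). The counts of genes that did not overlap in the 4 sets were near the background in GL3-GR and above it in GL1-GR, where they rest on changes of 0.1 to 0.37 log2 units in size.

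The directions were seldom shared. Of the 21 genes tested in all sets, 3 (14.3%) had changes of 1 sign in all 4 sets, against 16.1% of all probe sets. All 3 were lower with DEX. *UGT71C5* had -0.07, -0.27, -0.2 and -0.29 in GL1-GR at 4 h and 24 h and GL3-GR at 4 h and 24 h. *UGT74B1* had -0.02, -0.11, -0.43 and -0.36, and *UGT85A2* -0.19, -0.03, -0.54 and -0.03. None of these 12 changes passed the adjusted threshold in limma. *UGT78D1* was lower in 3 sets and higher in GL1-GR at 4 h.

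The difference between responses was then tested directly. Between the lines at 4 h, 0 of 23 UGT genes passed an adjusted p of 0.05 in limma, beside 0% of all probe sets, and 3 were under 0.05 unadjusted (4.22% of all probe sets). They were *UGT85A5* with -0.89 (GL3-GR minus GL1-GR, SE 0.28), *UGT78D1* with -0.94 (SE 0.37) and *UGT76E11* with 0.74 (SE 0.33), each with a limma adjusted p = 0.998. Between the lines at 24 h, 0 of 22 genes passed and 0 were under 0.05 unadjusted (2.68%). Between the times in GL1-GR, 0 of 24 passed and 0 were under 0.05 unadjusted (3.57%).

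Between the times in GL3-GR, 0 of 21 genes passed in limma and 3 were under 0.05 unadjusted (3.36%). *UGT71C4* had -1.06 (24 h minus 4 h, SE 0.31), *UGT85A5* 1.15 (SE 0.4) and *UGT76E11* -1 (SE 0.4), each with an adjusted p = 1. The test of differences was run by limma alone. These 3 genes are those with the largest responses at 4 h in GL3-GR, the set of the largest spread.

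Grouped by known acceptor, 0 genes passed in any class and set in limma. The genes listed for flavonoids were *UGT73B1*, *UGT78D1*, *UGT78D3* and *UGT80B1*, 4 of 13 on the list. Their median changes were 0.11, 0.1, -0.04 and -0.24 in the same order of sets, over 4, 3, 3 and 3 tested genes. *UGT80B1* itself acts on sterols and is also on the sterol list. Its own changes were the medians in GL1-GR at 24 h and in GL3-GR at both times. In GL3-GR at 24 h all 3 tested genes were lower in DEX, *UGT73B1* with -0.01 (SE 0.12). Of the phenylpropanoid genes, 7 of 9 listed had a probe set and 5, 3, 3 and 2 were tested, with medians of 0.13, -0.06, -0.2 and -0.05. The last is that of *UGT72E1* (-0.17) and *UGT84A3* (0.07), which had opposite signs. *UGT74B1*, 1 of 2 listed glucosinolate genes, had the values given above.

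Among the hormone genes, *UGT74D1* (auxin) had 0.13, -0.23, 0.06 and -0.16. *UGT76C1*, *UGT76C2* and *UGT73C1* (cytokinin), tested in 3, 2, 1 and 2 of their number, had medians of -0.04, -0.14, 0.13 and -0.04. The abscisic acid genes *UGT71B6* and *UGT71C5* had medians of -0.04, -0.16, -0.23 and -0.17. *UGT71B8*, the third listed gene with a probe set, was not tested. The stress genes *UGT73B4*, *UGT73B5* and *UGT71C3* had medians of 0.08 and -0.19 in GL1-GR. In GL3-GR, where *UGT71C3* was at the floor and not tested, the medians of the other two were -0.15 and -0.12. Both listed brassinosteroid genes were without a single-gene probe set.

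Of the genes around the UGT step, few had a named probe set. From 27 listed genes of UDP-sugar supply only *USP*, a UDP-sugar pyrophosphorylase, was named, with changes of -0.07, 0.52, 0.24 and -0.07. From 14 listed glucosinolate core genes 0 were named. From 8 listed partners of sinapate metabolism 3 were named, *REF1*, *BGLU45* and *BGLU46*. *REF1*, an aldehyde dehydrogenase that makes sinapic and ferulic acid, had -0.02, 0.25, 0.02 and 0.12, and 0 of these 3 genes passed the adjusted threshold in limma in any set. *BGLU46*, a glucosidase that acts on the glucosides of lignin alcohols, had 0.59 in GL3-GR at 24 h (SE 0.19, adjusted p = 0.794), the only one of these 4 genes under 0.05 unadjusted in any set.

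The GL3-GR arrays of 4 h showed a further split that did not follow the treatment. Both arrays numbered sample 1 lay above the 4 others for 7 of 24 tested UGT genes and below them for 1 (33.3%, against 26.8% of all probe sets). This comparison was chosen after the values were seen. *UGT73B5* read 7.81 in Mock and 7.05 in DEX sample 1, and 4.44 to 5.18 in the other arrays. *UGT73B1* read 5.94 and 7.81, against 4.09 to 4.44, and *UGT73B4* 6.68 and 5.23, against 2.99 to 4.41.

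*UGT73B4* and *UGT73B5* are neighbours on chromosome 2 (AT2G15490 and AT2G15480). The other genes above were *UGT71B1*, *UGT76C2*, *UGT84A3* and *UGT85A2*, and *UGT72E1* was below, with 5.46 and 5.45 against 6.76 to 7.43. The DEX minus Mock changes of *UGT73B1*, *UGT73B4* and *UGT73B5* in this set were 0.56 (SE 1.05), -0.07 (SE 1.07) and -0.22 (SE 0.99). With the sample number as a block in the fit, the standard errors were 0.47, 0.53 and 0.34 and no change passed (adjusted p = 0.922, 0.993 and 0.948). What sets the sample 1 arrays apart was not tested.

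**Figure D5:**
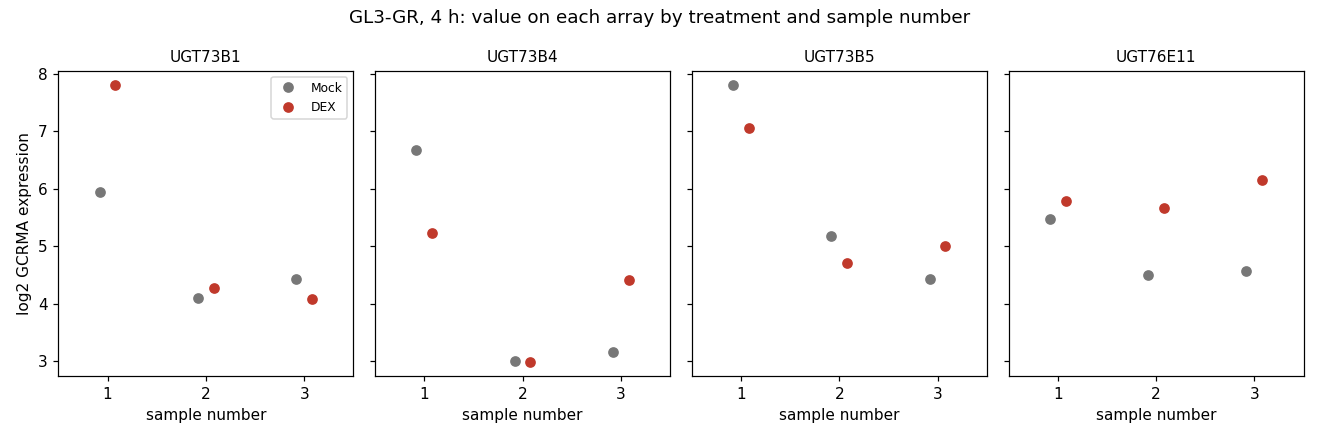
Log2 GCRMA expression of 4 UGT genes on the 6 GL3-GR arrays of 4 h, by sample number, Mock in grey and DEX in red. *UGT73B1*, *UGT73B4* and *UGT73B5* are highest in both sample 1 arrays, whereas *UGT76E11* is higher in DEX than in Mock at every sample number.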

How the data were processed

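Green tissue RNA of the 8 groups named by the labels was amplified before labelling (NuGEN Ovation). The authors deposited log2 expression per probe set, normalized by GCRMA (version not given in the sources used here) in R with affylmGUI. That the scale is log2 follows from the range of the values. The minimum was the same within each set (2.1, 1.97, 2.25 to 2.26 and 2.05), so the sets may have been normalized separately, which the sources do not state. How arrays were centred stays unknown. The study's methods describe independent plant materials, whereas the labels give only a sample number. If they were not separate, p-values measure only the spread between these samples.

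The 64 control probe sets were left out. Probe sets were named from GEO's platform annotation (possibly outdated), with 1 gene for 13513, several for 503 and none for 8730, and loci came from the RefSeq table of TAIR10.1. The arrays name no build, so coordinates are not given. Each set was fitted alone with limma 3.58.1 (lmFit, eBayes) in R 4.3.3, on probe sets more than 1 above the array's lowest value in at least 2 arrays, with two-sided p-values adjusted by Benjamini-Hochberg over all of them. Differences between responses were fitted on 4 groups with a weight per set (arrayWeights). The procedure was tested on simulated data. Between 33.7% and 44.7% of probe sets lay within 1 of an array's lowest value, and the number of arrays limits the precision. No arrays were identical (0 of 231 pairs).

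The members, lists and tests were chosen with earlier results of these data known. Values in every array are given for the 4 tested genes of smallest p in each set, and the change and its error for the next 4. Genes named for their levels were chosen after those were seen. Other filters, normalizations, fits and the methods' t-test were tried as alternatives.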

Additional observations from a re-analysis of the deposited data

How the results depend on the processing

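The count of UGT genes called was 0 in each set and each difference between responses under nearly all alternatives, including each array left out in turn (0 to 0 in all). The exception was GL3-GR at 4 h with a fit of all 22 arrays, which called 1 gene, *UGT85A5* (-0.78), and 146 probe sets (32 higher, 114 lower in DEX). That fit assumes 1 spread for sets that differ in it. It called 4 probe sets in GL1-GR at 4 h, where 1 was called otherwise. With a weight per set it called 44, 2, 1 and 37 probe sets in GL1-GR at 4 h and 24 h and GL3-GR at 4 h and 24 h, and 0 UGT genes. In GL1-GR at 4 h the replicate block and the methods' t-test called 0 probe sets, and leaving out any array gave 0 to 0. In GL1-GR at 24 h, no filter, the 40th percentile filter and the methods' t-test called 1 each, and arrays left out gave 0 to 1 (1 without DEX sample 3). The causes were not tested. A floor margin of 2 left 11 UGT genes above the floor in GL3-GR at 4 h, in place of 21, and 10 on all 22 arrays, in place of 20 (20 to 20 with arrays left out). With arrays left out, the counts above the floor were 31 to 32, 23 to 24, 21 to 21 and 24 to 24. Of the 16 gene changes given per array, 155 of 156 alternatives kept the sign and the side of the threshold, and *UGT85A5* was the other.

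Whether equal sample numbers pair DEX with Mock arrays was not established. Correlations of same-numbered deviations were 0.0386, 0.0194 and 0.108 (GL1-GR, 4 h), 0.0616, 0.163 and 0.367 (GL1-GR, 24 h) and 0.307, 0.281 and 0.0684 (GL3-GR, 4 h). For GL3-GR at 24 h they were -0.146, and the block with crossed numbers, added after the data were seen, called 0 probe sets. The replicate block called 0 UGT genes in all sets.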
